A study of Mus with 6 samples.

Results

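miR-21a is a mouse microRNA whose hairpin precursor gives 2 mature strands, listed as mmu-miR-21a-5p and mmu-miR-21a-3p and written below without the species prefix. Both strands were listed in every library, and they are 2 of the 929 known mature miRNA names that all 6 libraries share. They were chosen by name, for the abundance of the 5p strand, so their levels and their order among other miRNAs are given here as a description. Small RNA had been sequenced from adipocytes of C57BL/6 mice with a wild-type genotype. The group exposed to chronic intermittent hypoxia (CIH), in which oxygen falls and recovers in repeated cycles, has 3 libraries, and the control group has 3. Both groups share the strain, genotype and cell type, and the labels give no age, fat depot or oxygen regime, and do not tie the libraries to animals or cultures.

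miRNAs are cut from a hairpin into a pair of strands, of which one is usually loaded into an Argonaute protein as the guide and the other, the passenger, is mostly degraded. The guide of miR-21a is the 5p strand, known for repressing Pdcd4, an inhibitor of translation, and Spry1, an inhibitor of growth factor signalling, and it is transcribed under control of STAT3 and AP-1. In fat, human miR-21 has been reported to favour adipogenic differentiation of stromal stem cells through the TGF-beta receptor TGFBR2, and miR-21 has been reported as raised by hypoxia in several cell types.

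Total counts ran from 7336758 to 11264151 in CIH libraries and from 6291101 to 9720485 in control libraries. The libraries numbered 3 of both groups stood apart from those numbered 1 and 2. Their files use a different list of names (1186 against 1053), and the control one was led by miR-148a-3p, at 49.4% of its counts. The comparisons of miR-21a below are therefore given over all 6 libraries, within the libraries numbered 1 and 2, and for the pair numbered 3, which has 1 library a group and no spread of its own.

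The precursor gene Mir21a lies on chromosome 11, at 86584067 to 86584158 of GRCm38, in the RefSeq table of GRCm38.p6. It falls within the span of Vmp1 (86583858 to 86683836), a gene for a membrane protein of autophagy, and starts 209 bases from the edge of that span. The nearest end of the neighbouring gene Tubd1 is 12459 bases away. A paralog, miR-21c, was listed with 0 counts in the CIH and the control library numbered 3, where 3 counts would be 0.266 and 0.363 CPM (counts scaled so that every library has the same total). It was not listed in the other 4 libraries. miR-21b and miR-590-5p, which shares the seed of miR-21a-5p, were not listed in any library. How reads that fit both miR-21a and a paralog were counted is not given in the sources used here, so the counts of miR-21a-5p may hold some reads of such a copy.

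miR-21a-5p took 43.2%, 51.6% and 18.0% of the counts in CIH libraries 1, 2 and 3, against 37.4%, 37.6% and 5.93% in control libraries 1, 2 and 3. The exact 95% binomial intervals of these shares were at most 0.0756 percentage points wide, and they cover counting error only. It was the most abundant name in CIH libraries 1 and 2 and in control libraries 1 and 2, at rank 2 in CIH library 3 and at rank 3 in control library 3. The label of a dominant adipocyte miRNA thus held in 4 of 6 libraries. In those 4 the next name was miR-143-3p, a miRNA reported to favour adipocyte differentiation. miR-21a-5p exceeded it 3.99-fold and 5.68-fold in CIH libraries 1 and 2, and 3.29-fold and 2.81-fold in control libraries 1 and 2. In the pair numbered 3, miR-148a-3p led, and miR-21a-5p stood at 0.724 of its level in the CIH library, against 0.12 in the control library. In CIH library 2 miR-21a-5p by itself made up more counts than all other names together.

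**Figure D1:**
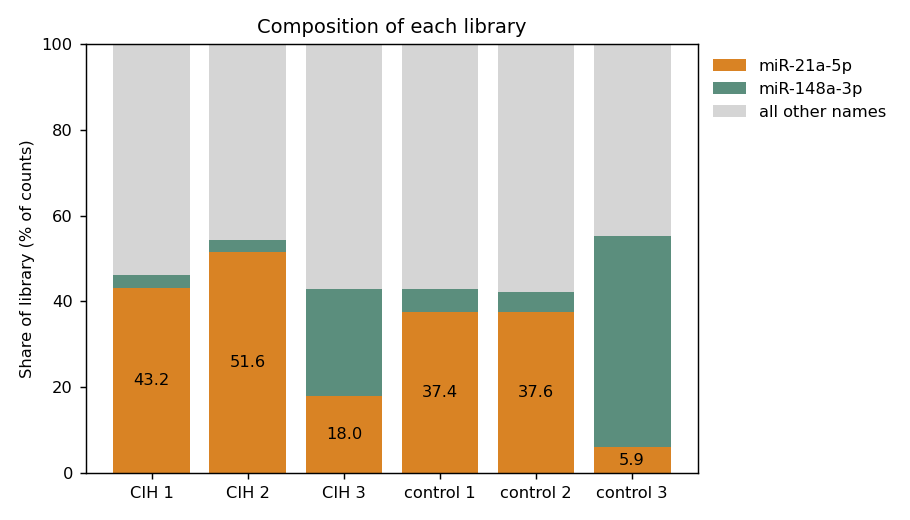
Share of each library in percent of its counts for miR-21a-5p (orange, value printed), miR-148a-3p (green) and all other names (grey), 1 bar for each library. miR-21a-5p took 18.0% to 51.6% of CIH libraries and 5.93% to 37.6% of control libraries, and miR-148a-3p was large in the libraries numbered 3.

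A name of this size changes the total against which every other name is scaled. miR-21a-5p and miR-148a-3p together took 46.2%, 54.4% and 42.9% of CIH libraries 1, 2 and 3, and 42.9%, 42.3% and 55.3% of control libraries 1, 2 and 3. Levels were therefore also set against the rest of each library, its total without these 2 names. Counts of miR-21a-5p came to 80.3%, 113% and 31.6% of that rest in CIH libraries 1, 2 and 3, against 65.6%, 65.1% and 13.3% in control libraries 1, 2 and 3. The ranges of the groups overlapped on both scales, because CIH library 3 lay below control libraries 1 and 2.

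Within each number, miR-21a-5p was higher in the CIH library than in the control library. The numbers come from the titles, which do not say that libraries sharing a number are matched. By file total the fold was 1.16 for number 1, 1.37 for number 2 and 3.04 for number 3, a gain of 5.79, 14.0 and 12.1 percentage points of the library. Against the rest of the library the folds were 1.23, 1.74 and 2.38. With TMM scaling, which trims the most abundant and most changed names, they were 1.21, 1.61 and 1.74. miR-148a-3p was lower in the CIH library of every number, at 0.542, 0.599 and 0.505 times the control by file total.

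**Figure D2:**
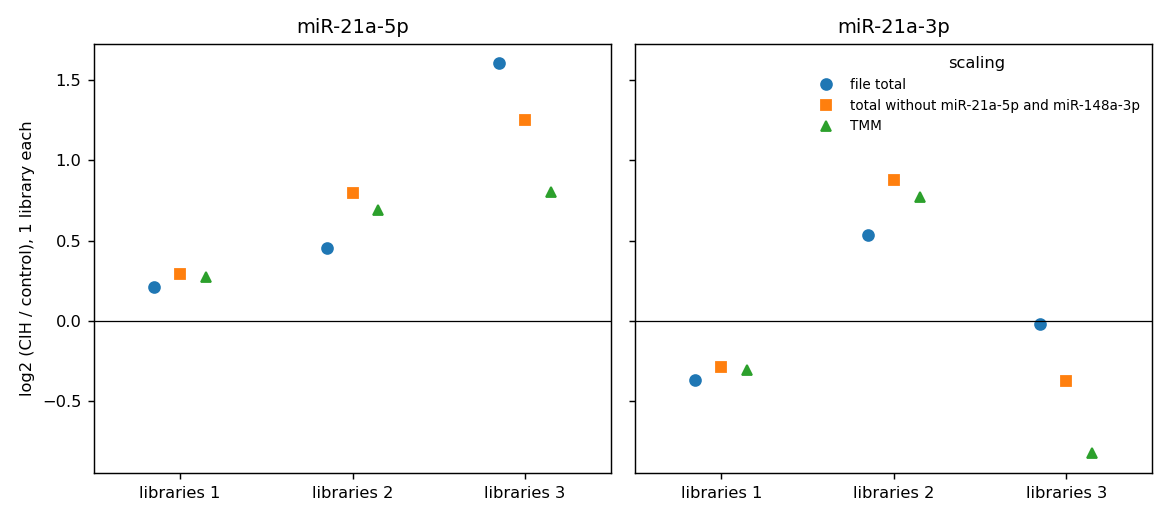
log2 ratio of the CIH library to the control library of the same number for miR-21a-5p (left) and miR-21a-3p (right), under 3 scalings, with 1 library a group at each point. miR-21a-5p lies above 0 at every number and scaling, and its value at number 3 runs from 0.80 to 1.60 with the scaling, while miR-21a-3p lies above 0 only at number 2.

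Over all 6 libraries the difference in miR-21a-5p was smaller than the spread between libraries of a group, which includes the gap between the libraries numbered 3 and the rest. Its share was 37.6% ± 17.5 in CIH and 27.0% ± 18.2 in control libraries (mean and SD of 3 libraries a group). The exact permutation test, which was two-sided throughout, gave p = 0.5, or 0.833 after adjustment over the 5 measures of miR-21a compared in this way. Against the rest of the library the mean log2 difference was 0.78, with the same exact permutation p. Without control library 3 the share differed by 0.111 percentage points and the level against the rest by 0.014 on the log2 scale. With 3 libraries against 3 this test cannot go below 0.1. edgeR's quasi-likelihood test gave a log2 difference of 0.55 (SE 0.72, adjusted p = 0.970), which was 0.12 without CIH library 2 and 0.17 without control library 3. The test called 0 of 456 miRNAs (0%). Before adjustment 23 of them had a p under 0.05, a cutoff that a share of 0.05 of tests passes where nothing differs. The alternatives DESeq2 and limma-voom called 0 as well, and 37 and 21 miRNAs had a p under 0.05 before adjustment. With the name list of the file as a term, the log2 difference of miR-21a-5p was 0.60 (SE 0.24, edgeR adjusted p = 0.510). With the numbers as pairs it was 0.59 (SE 0.25, edgeR adjusted p = 0.782). Paired by number, the exact permutation test of the share gave p = 0.25, the smallest it can give with pairs.

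Within the libraries numbered 1 and 2, where miR-21a-5p was higher in both CIH libraries than in both control libraries, the log2 difference was 0.50 (SE 0.22, edgeR adjusted p = 0.169). It did not pass the adjustment there, in a fit that called 43 of 459 miRNAs (9.37%), and 80.3% of the miRNAs with a value in both fits had a lower log2 difference. By file total the value was 0.34 (SE 0.21, edgeR adjusted p = 0.420), and with the total without miR-21a-5p and miR-148a-3p it was 0.57 (SE 0.20, edgeR adjusted p = 0.0597). These fits called 34 (7.41%) and 40 (8.71%) of 459 miRNAs. The median log2 difference of the tested miRNAs also changed with the scaling. It was -0.03 with TMM, -0.17 by file total and 0.03 with the total without the 2 names. Relative to that median miR-21a-5p stood at 0.54, 0.51 and 0.54. Over all 6 libraries the medians were 0.04, 0.15 and 0.22, and miR-21a-5p stood at 0.50, 0.33 and 0.42 relative to them.

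**Figure D3:**
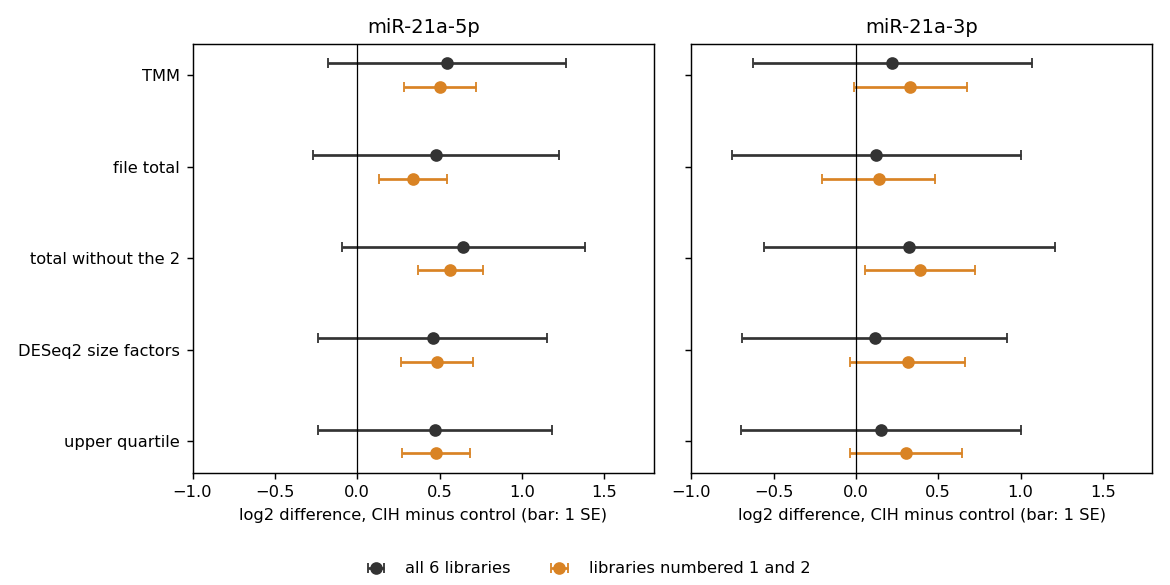
log2 difference between CIH and control with its SE from edgeR for miR-21a-5p (left) and miR-21a-3p (right) under 5 scalings (the 2 names left out of a total are miR-21a-5p and miR-148a-3p), for all 6 libraries (black) and the libraries numbered 1 and 2 (orange). miR-21a-5p lies between 0.46 and 0.65 over all 6 libraries, with SEs larger than the differences.

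A ratio of counts within a library needs no scaling between libraries. miR-21a-5p was set against each of the other 9 names among the 10 most abundant. Its ratio to 6 of them was higher in the CIH library of every number. For miR-378a-3p, a miRNA of the Ppargc1b gene linked to energy metabolism, the ratio was 14.9, 19.96 and 32.1 in CIH libraries 1, 2 and 3, and 8.58, 9.72 and 1.53 in control libraries 1, 2 and 3. For miR-30a-5p, of the pro-adipogenic miR-30 family, it was 46.7, 38.6 and 22.5 in CIH libraries and 19.3, 15.2 and 1.49 in control libraries. These were the 2 of 9 names whose ratio ranges did not overlap between the groups, at the smallest p the exact permutation test allows (0.1, and 0.65 when adjusted over 13 ratios). The CPM of miR-378a-3p and of miR-30a-5p in the CIH libraries all lay below those in the control libraries, as for 17 of 456 miRNAs (3.73%).

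The ratio of miR-21a-5p to miRNAs that are used as references in RT-qPCR depended on the reference. Against miR-191-5p the log2 ratio was 7.13, 7.53 and 6.85 in CIH libraries and 6.84, 6.99 and 6.90 in control libraries, so the groups overlapped and the mean difference was 0.26. Against miR-16-5p the mean difference was 0.14 and against let-7a-5p it was 0.17, each with CIH library 3 below control library 3. Against miR-103-3p, reported to govern insulin sensitivity, the mean difference was 1.19, and CIH was higher at every number. No reference gave ranges that did not overlap. The exact permutation test gave these 4 ratios p-values from 0.2 to 0.9.

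miR-21a-3p, the passenger strand, was rare. It had 166, 394 and 51 counts in CIH libraries 1, 2 and 3 and 184, 263 and 38 counts in control libraries 1, 2 and 3. These correspond to 22.6, 39.2 and 4.53 CPM in CIH libraries and 29.2, 27.1 and 4.60 CPM in control libraries. CIH library 2 was the highest and CIH library 1 lay below both control libraries numbered 1 and 2, so the groups overlapped. The strand ranked 204th, 163rd and 309th in CIH libraries and 194th, 192nd and 261st in control libraries. In the pair numbered 3, 51 and 38 counts leave a log2 difference of -0.02 by file total with an exact 95% counting interval of -0.66 to 0.62, so a change of up to about that size was not detectable at this depth.

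For miR-21a-3p the sign of the difference between CIH and control was not stable. By file total the log2 difference was -0.37 for number 1, 0.54 for number 2 and -0.02 for number 3. Over all 6 libraries it averaged 22.1 ± 17.4 CPM in CIH and 20.3 ± 13.6 CPM in control libraries (mean and SD of 3 libraries a group; exact permutation p = 1). edgeR gave a log2 difference of 0.22 (SE 0.85, adjusted p = 0.988) over all 6 libraries and 0.33 (SE 0.34, adjusted p = 0.629) within the libraries numbered 1 and 2. Without CIH library 2 these edgeR values were -0.66 and -0.28.

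The arm ratio, counts of 5p for each count of 3p, compares both strands of one hairpin in the same library. It was 19097, 13143 and 39818 in CIH libraries 1, 2 and 3, against 12792, 13884 and 12883 in control libraries 1, 2 and 3. The 3 control libraries lay close together although their 5p shares ran from 5.93% to 37.6%, while the CIH libraries were spread out, with CIH library 2 inside the control range. The exact 95% counting interval of CIH library 3 was 30284 to 53478, above the intervals of all other libraries, and that of CIH library 1 was 16403 to 22370, above those of control library 1 (11071 to 14862) and control library 2 (12303 to 15727). The control library numbered 3 had an interval of 9386 to 18206, which overlaps that of CIH library 1. On the log2 scale the ratio was 14.39 ± 0.81 in CIH and 13.69 ± 0.07 in control libraries (SD, n = 3 each), a difference of 0.71 (exact permutation p = 0.2, and 0.833 when adjusted over the 5 measures). Adapters join some RNA ends better than others in small RNA libraries, so the ratio of reads need not be the ratio of molecules.

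**Figure D4:**
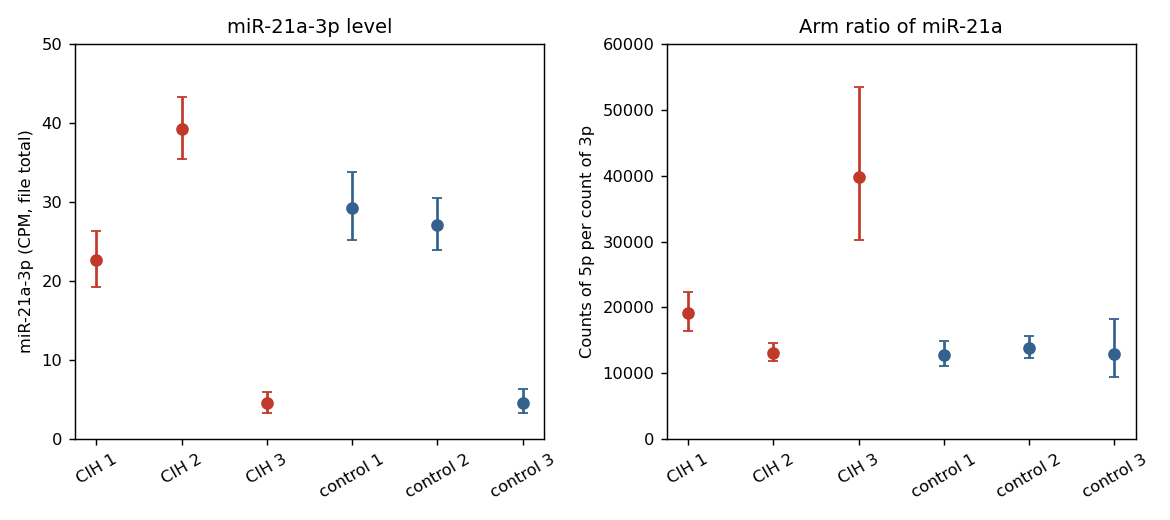
miR-21a-3p in CPM by file total (left) and the arm ratio of miR-21a in counts of 5p for each count of 3p (right) in each CIH (red) and control (blue) library, with exact 95% counting intervals. The control libraries share nearly the same ratio, while CIH libraries 1 and 3 lie above it and CIH library 2 within it.

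Among 33 hairpins with both arms listed and at least 1000 CPM for the major arm, miR-21a had the second highest arm ratio. Summed over the 6 libraries, 15396 counts of 5p stood against each count of 3p, and the median hairpin had a ratio of 425. The one above was miR-101b, at 99508, whose minor arm was at 0 in some libraries. Next below were miR-99a (8211), let-7g (7339) and miR-101a (5867). In 31 of the hairpins the minor arm was above 0 in every library. Among these the SD of the log2 ratio over the control libraries, a measure added after the values were seen, was lowest for miR-21a, against a median of 1.24. Over the CIH libraries 19 of the 31 had a lower SD than miR-21a, with a median of 0.65. The size of the log2 difference between CIH and control was 0.71 for miR-21a, 8th of the 31, and the median size was 0.46. Of the 31 hairpins, 3 had ratios that separated the groups fully, namely miR-146b, miR-27b and miR-34c, which were picked out after their values were seen and were all lower in CIH.

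**Figure D5:**
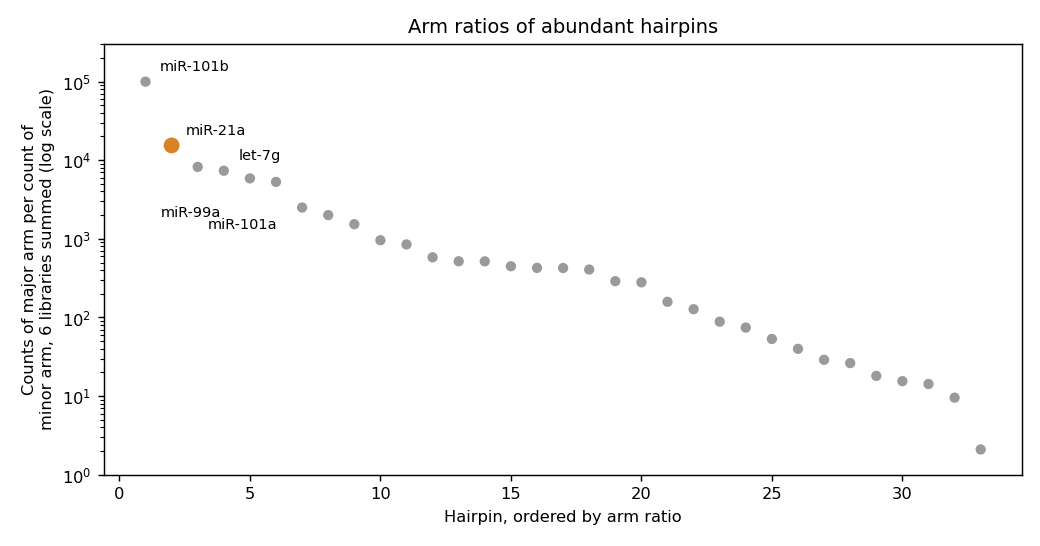
Counts of the major arm for each count of the minor arm, summed over 6 libraries, on a log axis for 33 hairpins ordered by that ratio. miR-21a (orange) is second, at 15396, below miR-101b and above miR-99a, let-7g and miR-101a.

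Both strands were lower in the libraries numbered 3 than in those numbered 1 and 2, a difference that was known when the miRNA was chosen. With group in the edgeR model, the log2 difference was -1.66 (SE 0.28) for miR-21a-5p and -2.31 (SE 0.52) for miR-21a-3p under TMM scaling. Against the total without miR-21a-5p and miR-148a-3p it was -1.94 (SE 0.30) and -2.62 (SE 0.50). By file total, which keeps both names, it was -1.98 (SE 0.38) and -2.69 (SE 0.51). The SD of log2 CPM over the 6 libraries was 1.17 for miR-21a-5p and 1.34 for miR-21a-3p, larger than in 80.5% and 88.6% of the tested miRNAs.

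Whether the CIH effect on miR-21a-5p differed between these sets depended on the scaling. The interaction of group and set was 0.30 (SE 0.37, edgeR adjusted p = 0.588) under TMM and 0.69 (SE 0.35, edgeR adjusted p = 0.121) with the total without the 2 names. By file total it was 1.27 (SE 0.35, edgeR adjusted p = 0.0134), where 158 of 456 miRNAs were called (34.6%), against 138 (30.3%) under TMM and 145 (31.8%) with the total without the 2 names. This fit takes its spread from the libraries numbered 1 and 2 alone. For miR-21a-3p the interaction was -1.16 (SE 0.66, edgeR adjusted p = 0.199) under TMM.

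The profile most like that of miR-21a-5p over the 6 libraries belonged to miR-191-5p, by the root mean square distance of centred log2 CPM (0.24, where 130 miRNAs averaging 100 CPM or more had a median distance of 1.08). miR-191-5p had 3080, 2795 and 1568 CPM in CIH libraries and 3261, 2956 and 497 CPM in control libraries. miR-3074-5p and miR-24-3p followed at a distance of 0.33 each, and their counts are nearly equal throughout, so these may be the same reads under 2 names. miR-26a-5p (0.33) and miR-10b-3p (0.38) were the next. For miR-21a-3p the closest were miR-30e-5p (0.30), miR-107-3p (0.36) and miR-676-5p (0.42), followed by its own partner strand miR-21a-5p (0.56) and miR-22-5p (0.58). In each of these profiles both libraries numbered 3 lay below the other 4.

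Lists of miRNAs that share inputs or reported roles with miR-21a were set beside it. They were written with earlier results of these data known, so the counts below are a description and not a test of a list. Of 9 miRNAs known to be induced by STAT3, AP-1 or NF-kB, 8 had a log2 difference above 0 over all 6 libraries, against 244 of all 456. Their median was 1.16 against 0.04 over all 456, and 0 were called. Within the libraries numbered 1 and 2, 4 of the 9 rose and 0 fell, where 19 of 459 miRNAs rose (4.14%) and 24 fell (5.23%). The 4 were miR-221-3p and miR-222-3p, which repress the cell cycle inhibitor p27, and both strands of miR-155, an inflammatory miRNA. miR-221 and miR-222 share a cluster, so these are not 4 independent members. The CPM ranges of these 4 did not overlap between the groups, as in 34 of 456 miRNAs (7.46%) on the higher side. miR-21a-5p shares AP-1 as a known activator with miR-221 and miR-222, and its log2 difference of 0.50 there stood beside 1.18 for miR-221-3p and 1.14 for miR-222-3p. In the pair numbered 3, with TMM scaling, it stood at 0.80 beside 2.68 and 1.70, and miR-155-5p and miR-155-3p were at 1.72 and 1.32. miR-146a-5p, an NF-kB target, did not pass within the libraries numbered 1 and 2 (0.88, edgeR adjusted p = 0.0705), and stood at 4.85 in the pair numbered 3.

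Of 16 hypoxia-induced miRNAs, 1 rose (6.25%) and 3 fell (18.8%) within the libraries numbered 1 and 2, against 4.14% and 5.23% of all 459, with a median log2 difference of -0.24 against -0.03 over all miRNAs. miR-155-5p rose by 0.76. Those that fell were both strands of miR-210, the HIF-1 target, and miR-322-5p, at -1.75 for miR-210-3p, -2.44 for miR-210-5p and -1.30 for miR-322-5p. The pair numbered 3 did not follow these values with TMM scaling, at -0.33 for miR-210-3p, 0.59 for miR-210-5p and 3.44 for miR-322-5p. Over all 6 libraries miR-322-5p stood at 0.12. Of 17 pro-adipogenic miRNAs, 0 rose and 2 fell (11.8%) there, miR-210-3p and miR-148a-3p (-0.66), with a median of -0.20. In the pair numbered 3 miR-148a-3p stood at -1.79. Over all 6 libraries 0 members of these 2 lists were called. The lists overlap, and their members' results were known when they were written.

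miR-21 is also abundant in leukocytes and fibroblasts, so its level does not mark adipocytes. The summed level of 4 leukocyte miRNAs was 0.266 to 3.27 CPM in CIH and 0.363 to 4.29 CPM in control libraries, and 0 of the 4 were above 3 counts in every library. miR-223-3p was at 0 in both libraries numbered 3 and at most at 0.412 CPM elsewhere. The summed level of 4 fibroblast and stromal miRNAs, all above 3 counts in every library, was 11256, 11137 and 66667 CPM in CIH libraries 1, 2 and 3 and 16295, 13577 and 6518 CPM in control libraries 1, 2 and 3. It was lower in CIH at numbers 1 and 2 and higher at number 3, where the fold of miR-21a-5p by file total was also the largest, and its part in that fold was not tested. All 5 adipocyte-related miRNAs were above 3 counts in every library, but none of them is specific to adipocytes. Their sum was 176681, 154490 and 318521 CPM in CIH libraries 1, 2 and 3 and 225570, 233988 and 598211 CPM in control libraries 1, 2 and 3. It was lower in CIH at every number, where miR-21a-5p was higher, and its part in that difference was not tested. The sum is scaled by file total, which includes miR-21a-5p, so these levels are not independent. For number 3 most of it was miR-148a-3p, with 249065 CPM in the CIH library against 493520 in the control library. miR-103-3p and miR-378a-3p were also lower there. miR-143-3p changed little (55147 against 57127 CPM), and miR-30c-5p went the other way (2088 against 1190 CPM). The summed levels in CIH and control libraries also overlapped for endothelial (73.1 to 104 and 33.8 to 137 CPM), erythroid (20.95 to 135 and 54.8 to 154 CPM), muscle (11.6 to 38.7 and 12.6 to 111 CPM), hepatocyte (2.09 to 5.59 and 2.16 to 4.12 CPM) and neuronal miRNAs (208 to 519 and 210 to 516 CPM). The summed level of 7 epithelial miRNAs was lower in CIH at every number, at 170, 126 and 18.6 CPM in CIH libraries 1, 2 and 3 and 409, 334 and 76.3 CPM in control libraries 1, 2 and 3. Only 4 of these 7 were above 3 counts in every library. For the pair numbered 3 the lower sum came from miR-205-5p, with 1.86 CPM in the CIH library against 67.8 in the control library. miR-200a-3p, miR-200b-3p, miR-200c-3p and miR-203-3p were higher in CIH library 3 than in control library 3. miR-200b-3p was also higher in CIH library 2 than in control library 2 (15.7 against 13.8 CPM). Within the libraries numbered 1 and 2 the epithelial miRNAs miR-205-5p and miR-203-3p fell, by 1.44 and 1.24 on the log2 scale. Their part in the level of miR-21a-5p was not tested. In bulk RNA, a change in the number of cells and a change in the level per cell cannot be told apart.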

How the data were processed

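The deposited values are whole-number counts per mature miRNA, 1 table a library. In 3 of the 6 headers the column is named FPKM, but it holds whole numbers with unequal totals and was taken as counts. GRCm38, featureCounts 1.5.0-p3 and DESeq 1.8.3 were named without a role, per the submitters' processing notes. Trimming, like alignment, is not given in the sources used here. Known names in every file, 929 in all, hold 99.97% or more of each library.

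Counts were fitted with edgeR 4.0.16 (quasi-likelihood, robust, TMM, filterByExpr, Benjamini-Hochberg at 0.05) in R 4.3.3 on whole-file totals, with limma 3.58.1 and DESeq2 1.42.0 as alternatives. Single values per library were compared with an exact permutation test in scipy 1.17.1. CPM are counts scaled to a common file total, and profiles, like the list values of the pair numbered 3, used log2 CPM with 0.5 added. The fits were tested on simulated counts. Named were both strands, related names, the leading names, the 5 closest profiles, up to 3 members of each list by smallest p with those called in the libraries numbered 1 and 2, and the hairpins next to miR-21a in arm ratio.

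Members and lists were chosen with earlier results of these data known. One planned list is not reported here. Deviations from the group means correlated at 0.31, 0.35 and 0.39 between libraries that share a number. CIH library 2 and control library 1 correlated at 0.40, and CIH library 1 and control library 2 at 0.19. These values do not show pairing beyond the gap to the libraries numbered 3. A blocked fit took the numbers as pairs as an alternative. Libraries within a group were further apart than counting noise (chi-square over its degrees of freedom at least 157), which separate preparations of one RNA would too. The labels do not name separate animals or cultures, so p-values may reflect technical spread. No molecular identifiers are mentioned, and intervals cover counting error alone. A floor of 3 counts is 0.266 to 0.477 CPM.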

Additional observations from a re-analysis of the deposited data

Results flagged for a closer look

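When counts were scaled by file total, the difference of miR-21a-5p was larger in the pair numbered 3 than within the libraries numbered 1 and 2. The log2 interaction was 1.27. It was smaller under the other scalings tried, TMM (0.30) and the total without miR-21a-5p and miR-148a-3p (0.69). The pair numbered 3 has 1 library a group and no spread of its own.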

How the results depend on the processing

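The log2 difference of miR-21a-5p kept its sign and did not pass the adjustment under any of 17 alternatives to the fit of all 6 libraries, which include fits of 4 or 5 libraries, or of 9 to the fit within the libraries numbered 1 and 2. Leaving out 1 library at a time moved it from 0.12 (without CIH library 2) to 0.91 (without CIH library 3), and from 0.23 to 0.74 within the libraries numbered 1 and 2. Its share moved from 0.111 to 20.4 percentage points and its log2 level against the rest from 0.01 to 1.31. The difference in the log2 arm ratio moved from 0.27 (without CIH library 3) to 1.07 (without CIH library 2). Under the replicate block the difference of miR-21a-5p was 0.59 (edgeR adjusted p = 0.782), 0 miRNAs were called, and no call changed. That of miR-21a-3p turned from 0.22 to -0.11 under the block, to -0.14 with limma-voom and to -0.027 with the name list as a term. Leaving out 1 library at a time it ran from -0.66 to 0.73, and from -0.28 to 0.76 within the libraries numbered 1 and 2. Against the library without its 10 most abundant names the log2 difference of miR-21a-3p was -0.12, against 0.07 for the rest without 2 names, and leaving out 1 library at a time gave -0.68 to 1.05. Its share moved from -0.000672 to 0.00106 percentage points. The cause of these changes of sign was not tested. The count of called miRNAs was 0 over 6 libraries and 43 within the libraries numbered 1 and 2, where it ran from 9 to 97 without 1 library (23 and 97 without CIH libraries 1 and 2, 14 and 9 without control libraries 1 and 2), with the lone library assumed to vary like the other group. Within the libraries numbered 1 and 2 all 9 alternatives were added after the data were examined. These are the scalings other than TMM, the replicate block and the fits without 1 library. The ratios to the RT-qPCR references were also added then. Depth limits miR-21a-3p, at 38 to 394 counts.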
